A study of Homo sapiens with 32 samples.

Results

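MEIS1, MEIS2 and ZFHX3 are genes for transcription factors, and they were followed here in an m6A sequencing series of human embryonic stem cells differentiated towards β-like cells. Their members are all the merged peaks that the deposited count table lists under the Ensembl identifiers of these genes. These came to 17 of the 26104 peaks in the table, in 3 of its 7978 genes: 2 peaks in MEIS1 (ENSG00000143995), 3 in MEIS2 (ENSG00000134138) and 12 in ZFHX3 (ENSG00000140836). A merged peak is a stretch of a transcript that peak calling marked as a place where an m6A antibody pulled down RNA.

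H1 and MEL1, a pair of established human embryonic stem cell lines, were sampled undifferentiated (S0) and after differentiation to stage 3 (S3, posterior foregut), stage 4 (S4, pancreatic progenitors) and stage 6 (S6, β-like cells). Each line and stage had 2 replicates. From each of the 16 RNA preparations, fragmented mRNA was sequenced as it was (input) and after pull-down with the m6A antibody (IP), which gave 32 libraries. No gene was deleted and no drug was compared, so that stage and line were the only groups. All cells at S3, S4 and S6 had passed through the differentiation protocol, and S0 cells had not. The protocol's medium held retinoic acid in the steps before S3 and S4 were collected and for some days after S4. The cells were sequenced in bulk, so that fewer cells of a type and less RNA per cell cannot be told apart. The study describes its replicates as independent biological samples, and the labels do not say which of them came from separate cultures. The study's plot of samples was made after a batch effect had been removed. The labels name no batch, so that line and batch cannot be told apart in the differences between lines.

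MEIS1 and MEIS2 belong to the TALE class of homeodomain proteins, which bind DNA together with PBX and HOX partners and shape positional identity in many embryonic tissues. In the pancreas, MEIS proteins bind regulatory DNA of PAX6. ZFHX3 is a very large protein with many zinc fingers and several homeodomains, known for roles in neuronal differentiation and circadian timing. N6-methyladenosine (m6A) is a mark placed on messenger RNA by the METTL3-METTL14 complex, often near stop codons and in long exons, and it affects how long an mRNA lasts and how well it is translated.

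Depth ran from 2652830 to 6879260 reads in the input libraries and from 2378880 to 15674900 in the IP libraries. The shallowest IP libraries were those of MEL1 at S4. Of the stem cell markers with a peak, 5 of 6 fell from S0 to S3, and all 5 posterior foregut markers rose. Of 7 endocrine markers 3 had a peak (CHGA, GLIS3 and ISL1), and all 3 were higher at S6 than at S0, although ISL1 had at most 11 input reads in a library and 0 in 6 libraries. The lines also differed in other tissues' markers. The summed input level of 3 hepatic markers (AFP, APOA1 and VTN, of a list of 4) was 434 and 440 CPM (counts scaled to a common library size) in H1 at S3 but 31984 and 28019 CPM in MEL1. At S4 the same sum was 187 and 137 CPM in H1, against 61925 and 65094 CPM in MEL1. At S6 it was 91.8 and 83.4 CPM in H1 and 2944 and 2864 CPM in MEL1. AFP was at 0 reads in 2 of the 16 input libraries, VTN in 1 and APOA1 in 0. The summed level of 3 duct markers (KRT19, KRT7 and SPP1, of 4) was 1273 and 1307 CPM in H1 at S6 and 8253 and 9061 CPM in MEL1. This sum was mostly KRT19, which reached 8706 CPM in a library, where SPP1 and KRT7 reached at most 495 and 7.10 CPM. Of 5 pancreatic progenitor markers 4 had a peak, and 3 of these were higher at S6 than at S0. Insulin and the other endocrine markers with no merged peak were not analysed here. Of the 4 enterochromaffin markers, 0 had a peak and they were not analysed here.

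The input level of a gene is the sum of its input reads over its merged peaks, in CPM after TMM normalization. MEIS1 was near the lower limit of counting in undifferentiated cells. In H1 it was at 1.45 and 2.73 CPM at S0, 77.1 and 79.5 CPM at S3, 110 and 129 CPM at S4, and 164 and 154 CPM at S6. In MEL1 it was at 0.206 and 0.218 CPM at S0, with 1 read in each library, then 23.8 and 18.3 CPM at S3, 17.6 and 14.4 CPM at S4, and 63.5 and 72.2 CPM at S6. All differentiated libraries lay above all S0 libraries in both lines. In H1 the groups of successive stages did not overlap and each was higher than the last, whereas in MEL1 both S4 libraries lay below both S3 libraries.

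In H1, MEIS2 was also low at S0. In that line it was at 5.31 and 6.37 CPM at S0, 218 and 228 CPM at S3, 161 and 288 CPM at S4, and 277 and 252 CPM at S6. The H1 libraries at S4 were the least alike and spanned those of S3. In MEL1 it was at 1.03 and 0.218 CPM at S0, 9.01 and 16.5 CPM at S3, 29.8 and 24.7 CPM at S4, and 85.5 and 74.6 CPM at S6, so that the groups of MEL1 did not overlap and each was higher than the last.

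ZFHX3 was low at S0 and higher than there at S3, S4 and S6. In H1 it was at 0.242 and 1.59 CPM at S0, 21.5 and 26.2 CPM at S3, 39.5 and 39.4 CPM at S4, and 32.8 and 24.9 CPM at S6. In MEL1 it was at 1.23 and 3.26 CPM at S0, 21.0 and 15.3 CPM at S3, 18.5 and 18.4 CPM at S4, and 19.0 and 29.9 CPM at S6. The H1 groups at S3 and S6 overlapped. In MEL1 the S3 group overlapped those of S4 and S6, and both S6 libraries lay above both S4 libraries. Levels of different genes are not set against each other here, because the lengths of the peaks were not given.

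**Figure D1:**
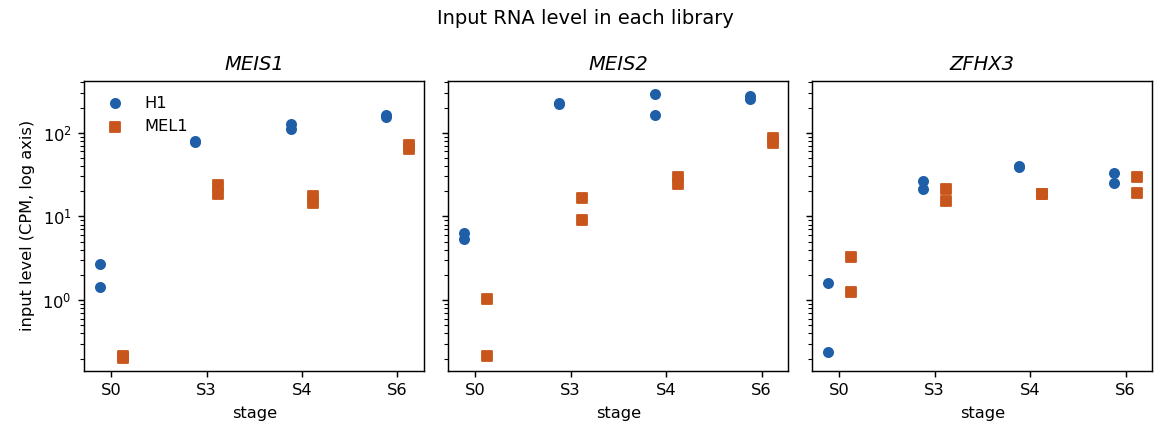
Input level (CPM, log axis) of MEIS1, MEIS2 and ZFHX3 in each of the 16 input libraries by stage, with H1 as circles and MEL1 as squares and 1 point per library. In all 3 genes every differentiated library sits above every S0 library of both lines.

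The comparison of stages asks how expression changed along the differentiation. With both lines in one edgeR quasi-likelihood fit (stage and line as terms, Benjamini-Hochberg adjustment over 7973 genes), a gene was called at an adjusted p under 0.1 and at least a 2-fold change. From S0 to S3 MEIS1 rose by 5.50 on the log2 scale (SE 0.39, adjusted p = 5.9e-08), a 45.2-fold change. MEIS2 rose by 4.86 (SE 0.49, adjusted p = 2.2e-06), or 29.0-fold, and ZFHX3 by 3.65 (SE 0.45, adjusted p = 1.7e-05), or 12.5-fold. In each gene both S3 libraries lay above both S0 libraries of the same line. So 3 of 3 genes were called higher, where 15% of all genes tested were, and their changes exceeded those of 99.4%, 99.1% and 98.2% of genes. Because S0 counts were low, the size of the rise is loosely bounded. In MEL1, MEIS1 had 176 reads at S3 against 2 at S0, a ratio of 98.8 after scaling, with an exact 95% interval of 26.9 to 822. In H1 the same ratio was 37.1 (23.3 to 63.0), from 777 against 18 reads. These intervals cover counting error only.

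From S3 to S4 none of the 3 genes was called, and 1.49% of all genes were called higher. The log2 changes were 0.21 for MEIS1 (SE 0.28, adjusted p = 0.82), 0.41 for MEIS2 (SE 0.37, adjusted p = 0.71) and 0.44 for ZFHX3 (SE 0.37, adjusted p = 0.68). From S4 to S6 MEIS1 was called, with a rise of 1.19 (SE 0.28, adjusted p = 0.023), or 2.29-fold, and both S6 libraries lay above both S4 libraries in each line. It was 1 of 3 genes called higher, against 2.85% of all genes. The log2 difference was 0.99 for MEIS2 (SE 0.38, adjusted p = 0.14) and -0.09 for ZFHX3 (SE 0.37, adjusted p = 0.93). With DESeq2 the MEIS2 difference was 1.03 (adjusted p = 0.081) and was called. The H1 groups of MEIS2 at S4 and S6 overlapped, and those of ZFHX3 lay lower at S6 in H1 and higher in MEL1. Within MEL1 alone the log2 change from S4 to S6 was 2.09 for MEIS1, which was called, and 1.56 for MEIS2 (adjusted p = 0.0021). Within H1 alone it was 0.41 for MEIS1 (adjusted p = 0.037), under the 2-fold limit, and 0.23 for MEIS2 (adjusted p = 0.46). At S6 against S0, which shares its S0 libraries with the comparison of S3 and S0, MEIS1 was higher by 6.90 (SE 0.40, adjusted p = 4.9e-09), MEIS2 by 6.26 (SE 0.50, adjusted p = 2.1e-07) and ZFHX3 by 4.00 (SE 0.46, adjusted p = 6.9e-06). All 3 were called higher, against 17.5% of all genes.

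The lines were also compared at S3, S4 and S6. When every combination of line and stage was given its own mean, in a test added after the data were seen, MEIS2 was lower in MEL1 than in H1 by 4.11 on the log2 scale at S3 (SE 0.27, adjusted p = 1.5e-10), by 3.05 at S4 (SE 0.26, adjusted p = 7.7e-09) and by 1.72 at S6 (SE 0.24, adjusted p = 7.0e-06). MEIS1 was lower in MEL1 by 1.90 at S3 (SE 0.19, adjusted p = 7.0e-08), by 2.90 at S4 (SE 0.21, adjusted p = 4.5e-10) and by 1.23 at S6 (SE 0.18, adjusted p = 1.3e-05). For ZFHX3 the log2 difference of MEL1 from H1 was -0.39 at S3 (SE 0.33, adjusted p = 0.35), -1.09 at S4 (SE 0.33, adjusted p = 0.010) and -0.25 at S6 (SE 0.33, adjusted p = 0.60), and only that at S4 was called. At S3, 2 of 3 genes were called, at S4 3 of 3 and at S6 2 of 3, where 29.8%, 34% and 22.4% of all genes were called in either direction. The hepatic marker sums given above were higher in MEL1 at each of these stages. The sum of 4 neural markers (of a list of 8) was 764 CPM in both H1 libraries at S6 and 192 and 207 CPM in MEL1, and at S3 it was 81.2 and 73.1 CPM in H1 and 29.5 and 36.8 CPM in MEL1. At S4 the neural sums of the lines overlapped, at 94.1 and 105 CPM in H1 and 133 and 102 CPM in MEL1. Of its members, NEFL and STMN2 reached 456 and 282 CPM in a library, and OTX2 and SOX1 at most 114 and 23.05 CPM. The study counts STMN2, like MEIS2, among γ-cell identity genes, so that this sum does not mark neural cells alone. From S0 to S6 OTX2 fell by 1.04 (adjusted p = 0.013), and SOX1, a marker of early neural cells, was at 0 reads in 5 of 16 input libraries. The sum of 5 mesenchyme markers (of 8) was 70.6 and 95.8 CPM in H1 at S4 and 791 and 723 CPM in MEL1. Among these 5, COL1A1 reached 630 CPM in a library, and COL1A2, PDGFRA, TWIST1 and PDGFRB at most 132, 39.3, 31.9 and 17.0 CPM. The mesenchyme sums lay closer together at S3, with 111 and 117 CPM in H1 and 154 and 136 CPM in MEL1, and at S6, with 234 and 242 CPM in H1 and 252 and 259 CPM in MEL1. Markers of the stages themselves also differed. The sum of 6 stem cell markers was 1606 and 1678 CPM in H1 at S3 against 346 and 349 CPM in MEL1, 1937 and 1608 against 494 and 477 CPM at S4, and 951 and 914 against 517 and 523 CPM at S6. The sum of 5 posterior foregut markers was lower in H1 at all of these stages, with 766 and 749 CPM against 2497 and 2381 CPM at S3. The sum of 4 pancreatic progenitor markers was higher in H1 at S3, with 111 and 99.7 CPM against 43.0 and 42.7 CPM, and lower in H1 at S6, with 40.1 and 36.4 CPM against 164 and 161 CPM. The sum of 3 endocrine markers was higher in H1, with 629 and 496 CPM at S4 against 69.7 and 65.6 CPM in MEL1. It was 20.7 and 26.8 against 7.26 and 8.80 CPM at S3, and 821 and 794 against 738 and 748 CPM at S6. Of its members, CHGA reached 810 CPM in a library, and GLIS3 and ISL1 at most 16.9 and 3.63 CPM. The part of these markers and cell types in the line differences was not tested.

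The change from S0 was then compared between the lines. From S0 to S3 the rise of ZFHX3 was smaller in MEL1 by 1.62 on the log2 scale (SE 0.73, adjusted p = 0.087) and was called. The corresponding differences were 1.25 for MEIS1 (SE 0.73, adjusted p = 0.24) and -0.97 for MEIS2 (SE 0.93, adjusted p = 0.44). From S0 to S6 the rise of MEIS1 was larger in MEL1 by 1.92 (SE 0.72, adjusted p = 0.065) and was called, and the differences were 1.42 for MEIS2 (SE 0.72, adjusted p = 0.15) and -1.48 for ZFHX3 (SE 0.73, adjusted p = 0.14). Thus 1 of 3 genes was called in each comparison, against 34% and 25.1% of all genes. Both calls rested on S0 libraries with 1 to 15 reads of the gene. The ZFHX3 call was lost without each of 4 libraries: the difference was -0.87 without H1 S0 replicate 1 (adjusted p = 0.40), -0.78 without MEL1 S0 replicate 2 (adjusted p = 0.51), -1.47 without H1 S3 replicate 2 (adjusted p = 0.17) and -1.41 without MEL1 S3 replicate 2 (adjusted p = 0.17). The MEIS1 call was also lost without each of 4 libraries: the difference was 1.37 without H1 S0 replicate 2 (adjusted p = 0.34), 1.87 without MEL1 S0 replicate 1 (adjusted p = 0.22), 1.95 without MEL1 S0 replicate 2 (adjusted p = 0.16) and 1.80 without MEL1 S6 replicate 2 (adjusted p = 0.11). The MEIS1 call was lost with DESeq2 as well (2.08, adjusted p = 0.16) and with the single peak that has most input reads in place of the sum (1.13, adjusted p = 0.37). With that single peak the ZFHX3 difference was 4.35 (adjusted p = 0.068), but the peak, 5495, had 0 input reads in both MEL1 libraries at S0, so that this value depends on the prior count and measures no reversal.

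Lists of related genes were counted beside the shares of all genes called higher, given above, and called lower, which were 13.8% from S0 to S3, 0.351% from S3 to S4, 2.33% from S4 to S6 and 13.8% from S0 to S6. Of a list of 16 other TALE homeobox genes, 10 had a peak, and from S0 to S3 2 rose and 1 fell, with a median log2 change of 0.29 beside -0.02 over all genes. PKNOX2 rose by 1.76 (adjusted p = 0.0040) and IRX5 by 2.26 (adjusted p = 0.042), whereas IRX2 fell by 1.41 (adjusted p = 0.063). PBX2 and PBX3, which encode DNA-binding partners of MEIS proteins and are named after their values were seen, had log2 changes of 0.19 (adjusted p = 0.34) and -0.03 (adjusted p = 0.96). MEIS3, the third MEIS gene and also named after its values were seen, had a log2 value of 0.42 (adjusted p = 0.37). From S3 to S4 and from S4 to S6, 0 of the 10 were called. At S6 against S0, 5 rose and 0 fell, led by IRX5 (4.16, adjusted p = 0.0011), IRX1 (4.31, adjusted p = 0.0013), PKNOX2 (1.99, adjusted p = 0.0016) and IRX3 (2.32, adjusted p = 0.020). The other gene called was MEIS3 (1.02, adjusted p = 0.030).

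Of 13 other zinc finger homeobox genes, 10 had a peak, and 4 rose and 0 fell from S0 to S3, with a median of 0.48. ZHX1 rose by 1.85 (adjusted p = 3.0e-05), TSHZ1 by 3.69 (adjusted p = 5.6e-05), ZFHX4, the nearest relative of ZFHX3 in this list, by 1.47 (adjusted p = 0.014) and ZEB1, a repressor active in epithelial-mesenchymal transition, by 1.25 (adjusted p = 0.050). ZFHX2, also named after its values were seen, had a log2 value of -0.96 (adjusted p = 0.0048), under the 2-fold limit. ZFHX4 rose further from S3 to S4, by 1.53 (adjusted p = 0.059), and it was 1 of 10 in that step. In the step to S6 0 of 10 were called, and at S6 against S0 the counts were again 4 higher and 0 lower.

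Retinoic acid is a signal known to raise MEIS and HOX genes in other settings, and its receptors and regulators were followed as a list of 20, of which 11 had a peak. From S0 to S3 7 rose and 0 fell, with a median of 1.81. NR2F2, a nuclear receptor, rose by 5.13 (adjusted p = 8.1e-08), RARA, a retinoic acid receptor, by 1.81 (adjusted p = 2.0e-06), RARB, another receptor and a common retinoic acid target, by 5.90 (adjusted p = 3.0e-06) and NR2F1 by 3.87 (adjusted p = 1.3e-05). From S3 to S4 1 rose and 0 fell, and from S4 to S6 1 rose and 1 fell, the latter being DHRS3, an enzyme that reduces retinal, by 2.43 (adjusted p = 0.010). At S6 against S0, 7 rose and 0 fell. The summed level of the 11 genes was 4975 and 4928 CPM in H1 at S3 and 784 and 797 CPM in MEL1. The lines lay closer together at S4, with 4599 and 4107 CPM against 1348 and 1358 CPM, and at S6, with 4996 and 5179 CPM against 2097 and 1999 CPM. At S0 the same sum was 1161 and 1165 CPM in H1 and 591 and 581 CPM in MEL1.

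Over the 16 input libraries, which share stage and line, the log2 input levels of MEIS1 and MEIS2 had a Pearson r of 0.96. MEIS1 was the gene most like MEIS2 among 7717 genes, followed by PLXNA2 and ARNT2 (both r = 0.96). The genes most like MEIS1 were IQCE, SETBP1 and RALGDS (all r = 0.97). ZFHX3 was less like MEIS1 (r = 0.88) and MEIS2 (r = 0.78), and its nearest genes were PCDH17 (r = 0.96), WLS and CCDC57 (both r = 0.95). These are descriptions, since the libraries share stages and lines.

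Because the 3 genes rose together from S0, the DNA before their starts is shown, as RefSeq gives it for GRCh38.p14. RefSeq lists 1 start for MEIS1, 2 for MEIS2 and 4 for ZFHX3, and which start these cells used was not analysed here. Each line below is the 250 bases before a start, 5′ to 3′, in lower case, with capitals at the homeodomain core TAATTA. For MEIS1 they are chr2:66434875-66435124 on the plus strand, for MEIS2 chr15:37099107-37099356 on the minus strand, and for ZFHX3 chr16:73059022-73059271 on the minus strand, the only start of the 7 with a motif match.
MEIS1: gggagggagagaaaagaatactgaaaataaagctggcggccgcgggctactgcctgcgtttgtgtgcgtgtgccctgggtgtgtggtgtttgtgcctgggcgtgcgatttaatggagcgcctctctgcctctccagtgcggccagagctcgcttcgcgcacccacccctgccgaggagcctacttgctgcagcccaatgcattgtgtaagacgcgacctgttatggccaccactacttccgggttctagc
MEIS2: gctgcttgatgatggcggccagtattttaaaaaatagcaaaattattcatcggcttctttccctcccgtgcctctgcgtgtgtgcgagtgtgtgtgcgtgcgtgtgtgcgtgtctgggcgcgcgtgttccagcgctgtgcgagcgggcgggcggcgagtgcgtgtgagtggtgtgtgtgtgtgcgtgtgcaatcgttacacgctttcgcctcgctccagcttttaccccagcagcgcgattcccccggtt
ZFHX3: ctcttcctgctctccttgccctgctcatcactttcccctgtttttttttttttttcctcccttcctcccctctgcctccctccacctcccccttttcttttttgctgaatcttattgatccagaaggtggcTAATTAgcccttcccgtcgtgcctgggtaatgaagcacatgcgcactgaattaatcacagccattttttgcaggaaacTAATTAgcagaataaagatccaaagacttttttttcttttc
The TAATTA matches before ZFHX3 begin at positions -119 and -41 from the start, and this motif, which reads the same on both strands, is in 4.35% of 35116 such windows. The MEIS core TGACAG (13% of windows), the forkhead core TGTTTAC (2.98%), the nuclear receptor core AGGTCA (12.1%) and its variant AAGTTCA (2.63%) were searched on both strands and had 0 matches in the 7 windows. The MEIS1 and MEIS2 windows shown have 59.6% and 58.8% G and C and hold 16 and 26 CG dinucleotides, where the median window has 58% and 11. The ZFHX3 window shown, picked for its matches, has 44% and 3. The other ZFHX3 windows have 47.6%, 41.2% and 71.6%, with 5, 2 and 31 CG dinucleotides. A match is a description of letters and says nothing of binding.

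The table names each peak by a position number within its gene. How the number runs along the transcript and the genome build are not stated in the sources used here, so no sequence under a peak is shown. MEIS1 had peaks at 101 and 8401, of which 8401 took 78.8% of the gene's IP reads over all libraries. MEIS2 had peaks at 2149, 2449 and 2699, and 2699 took 55.9%. These peaks lie close together and may share RNA fragments. ZFHX3 had peaks at 2095, 4345, 5095, 5495, 6145, 6395, 7145, 8645, 10895, 13795, 13895 and 14095, and 5495 took 39.1%. With 12 peaks ZFHX3 was among the 1.62% of genes with that many or more, while the median gene had 2. The libraries came from a stranded kit, but whether counting used strand is not stated, so that reads of MEIS1, ZFHX3 and their antisense genes cannot be told apart.

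IP over input, the ratio of a peak's CPM in the IP library to that in the input library of the same preparation, describes how much m6A antibody pull-down a peak had relative to its RNA. After TMM normalization over all 32 libraries the median log2 ratio over peaks ran from -1.13 to -0.18 in the 16 preparations and was lowest in MEL1 at S4. Input reads enter both this ratio and the expression level. Enrichment at a stage was tested as IP against input over both lines in the edgeR fit. At S3, 13 of the 17 peaks were called enriched, where 30.3% of all peaks were, and the median log2 enrichment was 2.19 against 0.07 for all peaks. At S4 the count was 8 of 17 (20.8% of all peaks) with medians of 1.17 and -0.30, and at S6 it was 12 of 17 (28.4%) with medians of 1.88 and -0.12. The peaks were chosen by peak calling on pull-down in these same libraries, and the 3 genes had few reads at S0. Their peaks could thus hardly enter the table through S0. An excess over all peaks at later stages is therefore partly built in and is no separate result. At S0, 4 of 17 were called enriched (30.7%) and 1 depleted (24.9%), all in ZFHX3. With a block for each preparation, 3 of 17 were called enriched at S0 (29.6% of all peaks) and 0 depleted. There MEIS2 2699 was called (1.04, adjusted p = 0.090), while ZFHX3 4345, 6395 and 2095 were not (adjusted p = 0.18, 0.10 and 0.12). The block also added ZFHX3 8645 at S3 (1.75, adjusted p = 0.060) and at S6 (1.95, adjusted p = 0.039), which made 14 of 17 (30.6%) and 13 of 17 (28.8%), and left 8 of 17 at S4 (19.5%). The S0 input libraries held 1 to 28 reads of a gene over all its peaks, so that IP over input was hardly measurable there. Without MEL1 S0 replicate 2, 0 of 17 were called enriched at S0, and without H1 S0 replicate 1, 1 of 17. At S6 7 of 17 were called without H1 S6 replicate 2, and also 7 with RLE size factors. MEL1 alone gave 7 of 17 at S3, 5 at S4 and 4 at S6.

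No change of IP over input between stages was called in any of the 17 peaks with both lines in the fit. The tests from S0 to S3, S3 to S4, S4 to S6 and S0 to S6 called 0 of 17 each, against 0.0498%, 6.6%, 7.58% and 1.26% of all peaks. At an unadjusted p under 0.05 the edgeR counts were 5, 2, 1 and 2 of 17, beside 1616, 4767, 5282 and 3333 of all 26104 peaks, and DESeq2 called 0, 0, 1 and 1 of 17. The input and IP libraries of a preparation come from the same RNA, and a fit with a block for each preparation called 2 of 17 from S3 to S4 (7.29% of all peaks) and 1 of 17 from S4 to S6 (6.82%). All of these were in MEIS2. Peak 2149 fell by 1.92 on the log2 scale from S3 to S4 (SE 0.45, adjusted p = 0.026), and peak 2699 fell by 1.66 (SE 0.54, adjusted p = 0.091) and then rose by 1.69 from S4 to S6 (SE 0.53, adjusted p = 0.086). The median change of all peaks from S3 to S4 was -0.36 in the fit without the block. The lines are therefore described one at a time.

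All 3 MEIS2 peaks were called enriched at S3 and at S6, and 1 of 3 at S4. At peak 2699, H1 had IP over input of 6.20 and 6.47 at S3, 0.913 and 0.762 at S4, and 5.10 and 5.11 at S6. MEL1 had 3.90 and 3.88 at S3, 3.46 and 3.05 at S4, and 5.10 and 5.34 at S6. The H1 values at S4 lay far below those of S3 and S6 without overlap, while in MEL1 they lay just below those of S3. Both H1 IP libraries at S4 also stood apart in the share of reads from mitochondrial genes, at 0.0465% and 0.0510%, where the other IP libraries ran from 0.388% to 2.25%. In a fit for each line without the peaks of mitochondrial genes, added after the data were seen, the H1 change from S3 to S4 at peak 2699 was -2.80 on the log2 scale (adjusted p = 6.4e-05). At peak 2149, H1 had 5.37 and 6.61 at S3, 1.63 and 1.05 at S4, and 4.20 and 4.64 at S6. MEL1 had 8.40 and 11.6 at S3, from 4 input reads in each library, then 4.14 and 2.43 at S4, and 4.13 and 2.90 at S6. Here both lines had their S4 values below their S3 values. Peak 2449 behaved otherwise: H1 had 5.88 and 6.28 at S3, 4.64 and 2.23 at S4, and 4.01 and 5.14 at S6. MEL1 had 22.1 and 1.37 at S3, from 1 and 21 input reads, then 11.01 and 8.69 at S4, and 4.60 and 4.08 at S6. The MEL1 S3 libraries thus lay further apart than those of any other line and stage at this peak.

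**Figure D2:**
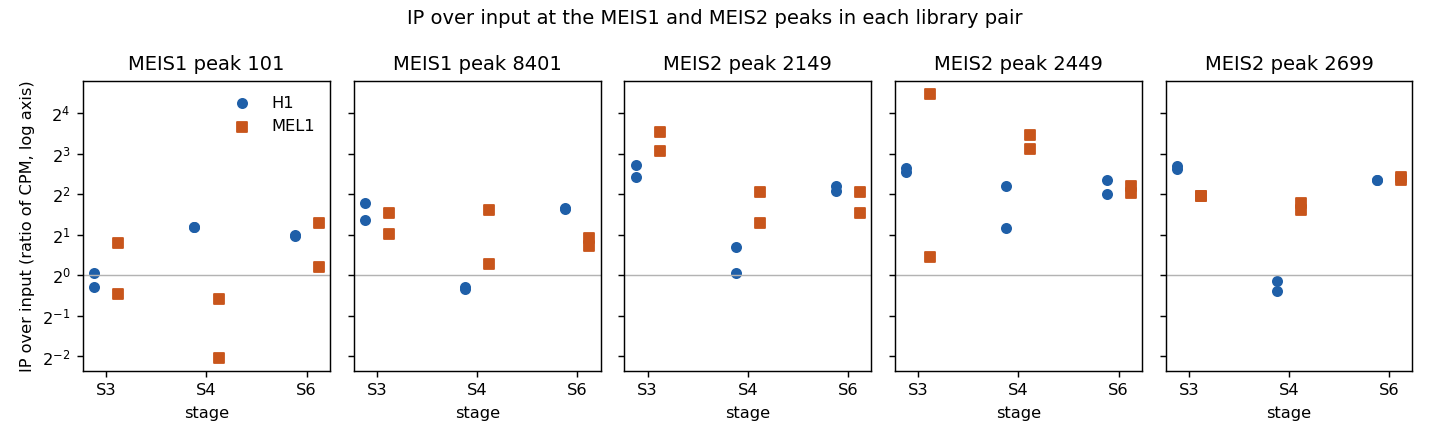
IP over input (ratio of CPM, log axis) at the 2 MEIS1 and 3 MEIS2 peaks for each preparation at S3, S4 and S6, with H1 as circles and MEL1 as squares. In H1 the S4 points of MEIS1 8401, MEIS2 2149 and MEIS2 2699 lie below those of S3 and S6, and those of MEIS1 101 lie above those of S3.

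The test of each line, also added after the data were seen, gave every combination of line, stage and library type its own mean, over all 26104 peaks. In H1 from S3 to S4, MEIS2 2699 fell by 2.97 on the log2 scale (SE 0.46, adjusted p = 3.8e-05), a 7.85-fold drop, or by 2.53 relative to the median of all peaks, which fell by 0.44. MEIS2 2149 fell by 2.25 (SE 0.37, adjusted p = 8.3e-05), or by 1.81 relative to that median. MEIS1 8401 fell by 1.87 (SE 0.43, adjusted p = 0.0021), while MEIS1 101 rose by 1.32 (SE 0.49, adjusted p = 0.050). Among the changes of all peaks, from lowest to highest, 2699 lay at percentile 12.6, 2149 at 18.4, 8401 at 23.2 and 101 at 84.5. Without the peaks of mitochondrial genes these 4 H1 changes were also called, at -2.80, -2.07, -1.70 and 1.49. In all, 4 of 17 peaks were called in H1 against 31.1% of all peaks, and 0 of the 12 ZFHX3 peaks. In H1 from S4 to S6, MEIS2 2699 rose by 2.66 (SE 0.46, adjusted p = 0.00017), MEIS1 8401 by 1.94 (SE 0.42, adjusted p = 0.0019) and MEIS2 2149 by 1.81 (SE 0.37, adjusted p = 0.00099), which made 3 of 17 against 26% of all peaks. The rises lay at percentiles 87.3, 80.1 and 78.4 of all peaks. These shares, 4 of 17 and 3 of 17, lie below those of all peaks, so that the counts are no result about these genes.

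In MEL1, 5 of 17 peaks were called from S3 to S4 (26.6% of all peaks), and the MEIS calls were a fall of MEIS2 2149 by 1.71 (SE 0.64, adjusted p = 0.058), a rise of MEIS2 2449 by 2.06 (SE 0.75, adjusted p = 0.054) and a fall of MEIS1 101 by 1.49 (SE 0.60, adjusted p = 0.081). At 2449 the S3 libraries of MEL1 disagreed, with IP over input of 22.1 and 1.37, and spanned those of S4, at 11.01 and 8.69. The direction of the change at 2449 in MEL1 is therefore not settled. The median of all peaks fell by 0.68 from S3 to S4 in MEL1. Without the peaks of mitochondrial genes that median was -0.14, and 2149 (-1.15, adjusted p = 0.24) and 101 (-0.93, adjusted p = 0.33) were not called in MEL1. Peak 2449 was called (2.62, adjusted p = 0.022), from the same disagreeing S3 libraries. From S4 to S6, 3 of 17 were called (22.1%), and MEIS1 101 was the only MEIS peak, with a rise of 2.0 (SE 0.59, adjusted p = 0.021). The other calls in MEL1 were ZFHX3 peaks with few reads at S4. There 6395 had 0 input reads in both libraries, 2095 had 0 IP reads in both, and 7145 had 1 and 17 IP reads against 5 and 9 input reads.

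The difference between the lines was then tested as an interaction. From S3 to S4 the change at MEIS2 2699 was higher in MEL1 than in H1 by 2.74 on the log2 scale (SE 0.69, adjusted p = 0.0056), and at MEIS1 101 lower by 2.80 (SE 0.78, adjusted p = 0.011). These differences lay at percentiles 82.5 and 17.2 of all peaks. Both were called without each of the 12 preparations after S0 in turn, with ranges of 2.57 to 3.44 and -3.54 to -2.10. The difference at MEIS2 2449 was 3.09 (SE 0.90, adjusted p = 0.015), but -0.08 without MEL1 S3 replicate 2. That at MEIS1 8401 was 1.64 (SE 0.67, adjusted p = 0.080), and it was 1.56 with a block for each preparation (adjusted p = 0.10, not called). The 8401 call was also lost in 6 of the 12 leave-outs, with values down to 0.87. In all, 4 of 17 peaks were called, against 29.4% of all peaks. From S4 to S6, 5 of 17 were called, against 21.1%, and 3 of 17 with the block. The differences of MEL1 from H1 were -2.0 at MEIS2 2699 (SE 0.67, adjusted p = 0.044), -2.17 at MEIS1 8401 (SE 0.66, adjusted p = 0.027), 2.21 at MEIS1 101 (SE 0.76, adjusted p = 0.052) and -1.61 at MEIS2 2149 (SE 0.61, adjusted p = 0.076). With the block the value at MEIS1 101 was 2.24 (adjusted p = 0.11) and was not called, and neither was ZFHX3 6395. The fifth call was ZFHX3 6395, at -6.99 (SE 2.71, adjusted p = 0.086), from the input libraries at 0 reads. Of the 12 leave-outs, the call at MEIS1 8401 was kept in 11 and lost without MEL1 S4 replicate 1 (-1.40). The call at MEIS2 2699 was kept in 9 and lost without each H1 S6 preparation and without MEL1 S6 replicate 1, with values from -2.35 to -1.83. That at MEIS1 101 was kept in 7, with values from 1.505 to 2.95, and was lost without these same 3 preparations, without H1 S4 replicate 1 and without MEL1 S4 replicate 1. That at MEIS2 2149 was kept in 5, with values from -2.12 to -1.23, and was lost without each preparation of H1 at S3 and S6, without H1 S4 replicate 2, without MEL1 S4 replicate 1 and without MEL1 S6 replicate 2. Leaving out 1 preparation brought the count in this step to between 1 and 6. It was 1 without H1 S6 replicate 1, without H1 S6 replicate 2 and without MEL1 S4 replicate 1, and 3 without H1 S3 replicate 1, without H1 S3 replicate 2 and without MEL1 S6 replicate 1.

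**Figure D3:**
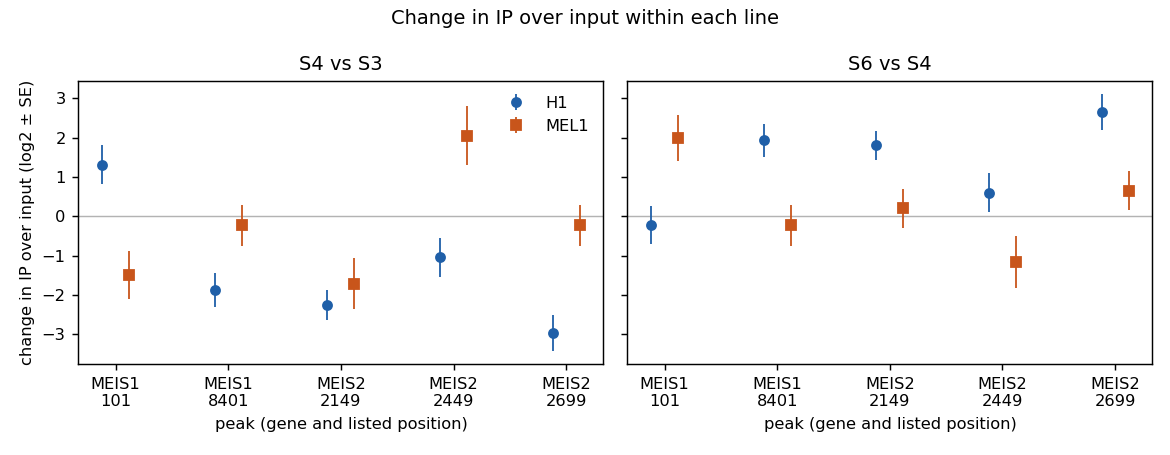
Change in IP over input (log2, with SE) at the MEIS1 and MEIS2 peaks from S3 to S4 and from S4 to S6, for H1 (circles) and MEL1 (squares), from the fit in which every combination of line, stage and library type had its own mean. At MEIS2 2699 the S3 to S4 change is -2.97 in H1 and -0.23 in MEL1, and at MEIS1 101 it is 1.32 in H1 and -1.49 in MEL1.

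The peaks of MEIS1 moved in opposite directions in H1. At 8401, H1 had IP over input of 2.57 and 3.42 at S3, 0.799 and 0.823 at S4, and 3.10 and 3.14 at S6. At 101 it had 1.04 and 0.827 at S3, 2.28 and 2.30 at S4, and 2.0 and 1.95 at S6. Replicates differed little and the S4 groups lay apart from S3 at both peaks. In MEL1, 8401 had 2.04 and 2.89 at S3, 3.08 and 1.21 at S4, and 1.64 and 1.89 at S6. At 101 MEL1 had 0.726 and 1.73 at S3, 0.245 and 0.668 at S4, and 2.46 and 1.16 at S6. The MEL1 S4 values came from 11 and 18 IP reads at 101, and from 85 and 38 at 8401. Peak 8401 was called enriched at S3 (log2 1.42, SE 0.37, adjusted p = 0.0018) and at S6 (1.17, SE 0.37, adjusted p = 0.0079) over both lines. The log2 values of peak 101 were 0.08 at S3, 0.54 at S4 and, at S6, 0.83, and it was called at no stage.

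The share of a gene's reads that fall in a peak needs no normalization between libraries, but it rises where the gene's other peaks fall. Of the MEIS1 IP reads in H1, the peak at 101 held 10.1% and 9.63% at S3, 56.1% and 49.6% at S4, and 15.6% and 15.1% at S6. The Wilson 95% intervals at S4 were 53.7% to 58.5% and 47.7% to 51.6%. Its share of input reads was 21.7% and 30.6% at S3, 31.0% and 26.04% at S4, and 22.3% and 22.2% at S6, so that the input shares of S3 and S4 overlapped. In MEL1 the IP share of this peak was 19.2% and 26.1% at S3, 11.5% and 32.1% at S4, and 33.0% and 27.4% at S6, and the S4 replicates spanned those of S3. In MEIS2 the peak at 2449 held 21.5% and 20.2% of the H1 IP reads at S3, 43.6% and 35.4% at S4, and 18.7% and 18.8% at S6. In MEL1 it held 12.5% and 11.02% at S3, 25.4% and 31.7% at S4, and 16.7% and 14.8% at S6. The S4 share of this peak was therefore above those of S3 and S6 in all preparations of both lines. Its input share in H1 was 21.7% and 20.8% at S3 and 15.9% and 17.1% at S4. In MEL1 its input share was 2.78% and 28.8% at S3 and 9.86% and 13.4% at S4, so that the S3 libraries spanned those of S4. In the test of each line, the H1 change of IP over input at 2449 from S3 to S4 was -1.04 (adjusted p = 0.13). It was not called, and the higher H1 share at S4 was thus no rise of IP over input.

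**Figure D4:**
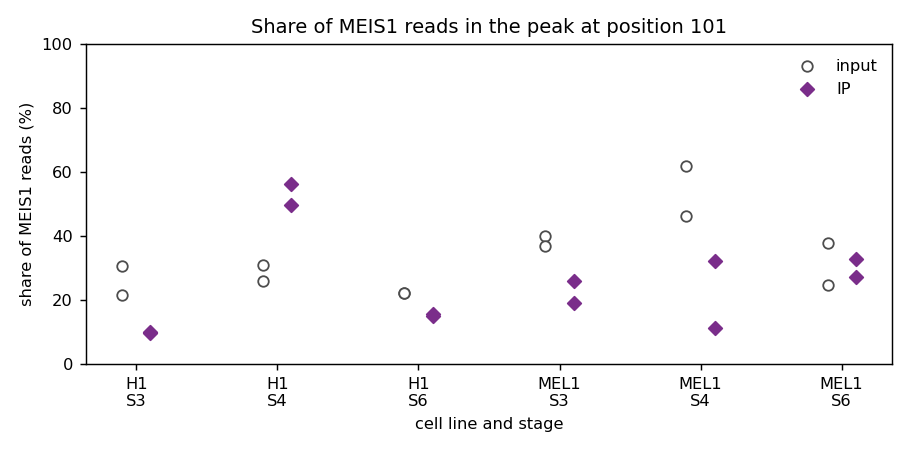
Share of MEIS1 reads (%) that fell in the peak at position 101, in each input library (open circles) and IP library (diamonds) at S3, S4 and S6 of each line. In H1 at S4 the IP share was 49.6% and 56.1%, above both input shares, while at S3 it was 10.1% and 9.63% and below both.

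Of the 12 ZFHX3 peaks, 9 were called enriched at S3, 7 at S4 and 8 at S6, with median log2 values of 2.20, 1.84 and 1.84. At 5495, the peak with most IP reads, H1 had IP over input of 5.56 and 5.05 at S3, 3.60 and 5.51 at S4, and 5.61 and 5.87 at S6. MEL1 had 4.60 and 4.48 at S3, 3.48 and 1.95 at S4, and 5.62 and 2.58 at S6. In H1 the S3 and S4 values overlapped and both S6 values lay above them. In MEL1 both S4 values lay below both S3 values, and the S6 libraries spanned those of S3. Its log2 enrichment was 2.28 at S3 (SE 0.47, adjusted p = 0.00016), 1.84 at S4 (SE 0.47, adjusted p = 0.0019) and 2.10 at S6 (SE 0.48, adjusted p = 0.00042). The share of ZFHX3 IP reads in this peak stayed between 36.7% and 44.1% in the 6 groups of line and stage after S0, with replicates pooled. In single libraries of these groups it ran from 30.3% to 46.8%, both at S4. Peaks 13795, 13895 and 14095, which are close together, were enriched at S3, S4 and S6, as were 5495 and 6145. Peak 2095 was not called after S0, with log2 values of -0.17 at S3 and -0.16 at S4 and 1.68 at S6 (SE 0.92, adjusted p = 0.11).

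Over both lines, peak 4345 had a log2 enrichment at S4 of 3.55 (SE 0.80, adjusted p = 0.00057), above 99.2% of all peaks, against 2.68 at S3 (SE 0.79, adjusted p = 0.0047) and 1.21 at S6 (SE 0.74, adjusted p = 0.16). The change from S4 to S6 was -2.34 (SE 1.06, adjusted p = 0.21) and was not called. In H1 it had 299 and 267 IP reads at S4 against 64 and 67 at S3 and 84 and 80 at S6, and held 12.7% of the pooled ZFHX3 IP reads at S4, 4.07% at S3 and 3.86% at S6. Its input was 1 and 13 reads at S4, so that its ratio rested on few input reads. The lines went opposite ways without a call, with a log2 change from S3 to S4 of 1.67 in H1 (SE 1.17, adjusted p = 0.31) and -1.03 in MEL1 (SE 1.37, adjusted p = 0.64). In MEL1 its IP over input was 10.5 and 5.64 at S3 and 2.12 and 8.02 at S4, which overlap. In MEL1 its share was 6.51% at S3, 6.46% at S4 and 4.45% at S6. Over all ZFHX3 peaks, input reads per peak ran from 37 to 450 over the 16 libraries, and the SEs of their log2 changes from S3 to S4 ran from 0.65 to 1.45, leaving out 2095, where no SE could be derived from a change near 0.

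**Figure D5:**
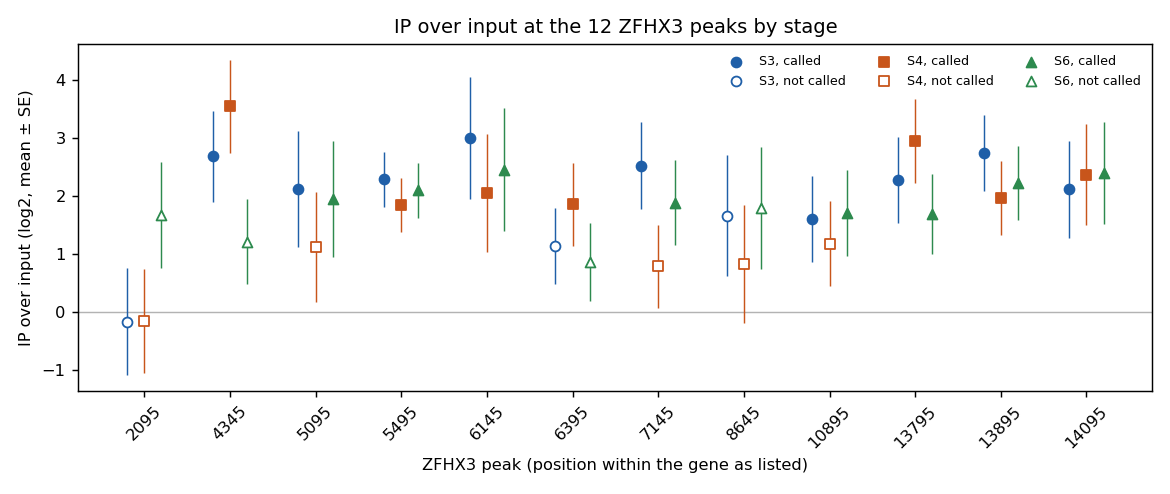
IP over input (log2, mean with SE, from edgeR over both lines) at the 12 ZFHX3 peaks in order of their listed position, at S3 (circles), S4 (squares) and S6 (triangles), filled where called enriched. Of the 12 peaks, 9 are filled at S3, 7 at S4 and 8 at S6, and 2095 is filled at none.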

How the data were processed

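The deposited table holds raw read counts per merged m6A peak, made by the authors, who counted reads in 50-bp bins along the genes of an Ensembl v94 annotation and called and merged peaks with MeRIPtools. Libraries came from a stranded TruSeq kit after pull-down with an EpiMark m6A antibody. The aligner and the genome build are not given in the sources used here. The table has peaks rather than whole genes, so that expression was taken as the input count summed over a gene's merged peaks, and genes without a peak were not analysed here. All 32 sample columns were used, and 0 were left out.

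Counts were fitted with edgeR 4.0.16 in R 4.3.3 (TMM, quasi-likelihood test, Benjamini-Hochberg adjustment). A total of at least 10 reads was required, which left 7973 genes and 26104 peaks, and calls needed at least a 2-fold change with an adjusted p under 0.1. Each SE is the log2 change over the square root of its F statistic, and cannot be derived for changes near 0. Expression used stage and line as terms, and the change of IP over input was the interaction of stage and library type. DESeq2 1.42.0, other size factors, single lines, a block and leaving out each library were alternatives. The code was tested on simulated data.

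The members and gene lists were chosen with earlier results of these data known. The genes named were the 3 members, all their peaks, the 3 genes most correlated with each, and up to 4 called genes of a list with the smallest adjusted p; exceptions are marked in the text. Deviations of same-numbered input libraries correlated by -0.02 to 0.06 in H1 and 0.11 to 0.17 in MEL1, and since they did not pass 0.1 in every comparison and the labels name no shared culture, numbers were not taken to pair them. The input and IP libraries of a preparation share RNA, with correlations of -0.25 to 0.11, and the result with a block for each preparation is given where it changes a call in the fit over both lines. Promoter sequences are from RefSeq (GRCh38.p14). Intervals cover counting error only.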

Additional observations from a re-analysis of the deposited data

Results flagged for a closer look

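The results below are listed because the change between stages was tested to differ between MEL1 and H1. Such calls were common: 34% and 25.1% of all genes were called from S0 to S3 and from S0 to S6, beside 1 of the 3 genes here each time, and 29.4% and 21.1% of all peaks from S3 to S4 and from S4 to S6, beside 4 and 5 of 17, so that the counts are no result about these genes. Each value is the log2 change in MEL1 minus that in H1, from edgeR with Benjamini-Hochberg adjustment. For expression these were ZFHX3 from S0 to S3 (-1.62, adjusted p = 0.087) and MEIS1 from S0 to S6 (1.92, adjusted p = 0.065).

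For IP over input from S3 to S4 they were MEIS2 2449 (3.09, adjusted p = 0.015), MEIS2 2699 (2.74, adjusted p = 0.0056), MEIS1 101 (-2.80, adjusted p = 0.011) and MEIS1 8401 (1.64, adjusted p = 0.080). From S4 to S6 they were MEIS2 2149 (-1.61, adjusted p = 0.076), MEIS2 2699 (-2.0, adjusted p = 0.044), MEIS1 101 (2.21, adjusted p = 0.052), MEIS1 8401 (-2.17, adjusted p = 0.027) and ZFHX3 6395 (-6.99, adjusted p = 0.086). Both steps share the S4 libraries. The MEL1 IP libraries at S4 were the shallowest, with 2483580 and 2378880 reads, and the part of depth in these differences was not tested beyond thinning the IP libraries to one depth, with which MEIS2 2699 and MEIS1 101 were still called from S3 to S4 (3.12, adjusted p = 0.0019, and -2.29, adjusted p = 0.036).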

How the results depend on the processing

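Of 1386 alternative values, 1286 kept their side of the threshold, with the same direction where called, or for counts stayed within 1.5 times. Among these, 15 uncalled values had the opposite sign. The rises of all 3 genes from S0 to S3 and from S0 to S6 were called under every alternative run. The genes called from S3 to S4 numbered 147, but 297 with DESeq2, 28 without the line term, 333 with only the 8 libraries compared, 591 in H1 alone, 757 in MEL1 alone and 73 to 194 when 1 library was left out. From S4 to S6 they numbered 413, but 149 without the line term, 745 in H1 alone, 1248 in MEL1 alone and 265 to 546 in the leave-outs. The MEIS1 change from S4 to S6 was not called without the line term (0.74) or in H1 alone (0.41). That of MEIS2 was called with DESeq2 (1.03) and in MEL1 alone (1.56), with 0.76 to 1.27 in the leave-outs, of which 1.27, without H1 S6 replicate 2, was called, and from S3 to S4 in MEL1 alone (1.09).

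The line difference of MEIS1 from S0 to S6 was 2.08 with DESeq2 and 1.13 with a single peak per gene, neither called, and 1.37 to 2.28 in the leave-outs. That of MEIS2 was 0.74 to 2.83 in the leave-outs and called without either H1 S4 library (1.42). That of ZFHX3 was 4.35 at S3 and 4.70 at S6 with a single peak, which had 0 input reads in both MEL1 libraries at S0, so that the opposite sign is no measured reversal. It had -3.46 to -0.78 and -3.32 to -0.64 in the leave-outs, and at S6 it was called in 3 of these (-3.32, -2.04 and -1.86). The cause was not tested.

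Of the 17 peaks, DESeq2 called 1 for a change from S4 to S6 and 1 from S0 to S6. H1 alone gave 5 from S3 to S4 and 4 from S4 to S6, and MEL1 alone 1 from S0 to S6. The leave-outs gave 0 to 1 from S3 to S4 and from S0 to S6. Enriched peaks at S0 numbered 1 with DESeq2, 2 with RLE size factors, 2 in MEL1 alone, 1 with thinned IP libraries and 0 to 4 in the leave-outs. MEL1 alone gave 7 at S3, 5 at S4 and 4 at S6, and at S6 RLE gave 7 and the leave-outs 7 to 15. The count of line differences from S4 to S6 was 1 to 6 in the leave-outs, and the S3 to S4 difference at MEIS2 2449 was -0.080 without MEL1 S3 replicate 2 and ranged up to 4.11.

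With the replicate number as a block, 93 genes were called from S3 to S4. With the preparation as a replicate block, 2 peaks were called from S3 to S4, 1 from S4 to S6, and 3 for a line difference from S4 to S6.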
